A study of Homo sapiens with 6 samples.

Results

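The corner of a topologically associating domain (TAD) is the place in a contact map where the first bin of the TAD meets its last bin. Corners were examined for the control TADs of LNCaP cells, an established prostate cancer cell line. The assay was Hi-C, which joins pieces of DNA that lay together in the nucleus and counts the joined pieces by sequencing. The corners were chosen by a rule that took every autosomal TAD of 400 kb to 1.2 Mb in the authors' control list, and it found 1736 of the 2763 autosomal and 2864 listed control TADs. Their median size was 680 kb. Because the TADs had been called on the control map itself, contacts at their corners in that map were part of how they were chosen, and the values below are descriptions without a test.

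Cells had been transfected with 20 nM of a pool of non-targeting siRNA (control siRNA, 2 libraries) or of a pool of siRNA against CTCF (CTCF siRNA, 4 libraries), transfected again when split, and collected 144 h after the start. All 6 libraries came from this 1 cell line, with the DNA cut by BglII. The libraries of a condition had been pooled into 1 map of 40 kb bins, so no spread between replicates could be measured, and what separates the CTCF siRNA libraries labelled as further versions of a replicate is not stated. The intervals given are 95% intervals of counting error only, unless a sentence says otherwise, in which PCR copies are not told apart from independent molecules. The control map held 26174669 read pairs, 52.2% of them within a chromosome, and the CTCF siRNA map held 87657789, of which 64.2% were within a chromosome. Depth and this share differed along with the treatment, and their part in the differences cannot be told apart from it with 1 map per condition. When the CTCF siRNA map was thinned to the number of contacts within chromosomes of the control map, the log2 difference over all corners was -0.37, as without thinning. Random thinning leaves a summed ratio the same on average, and the TADs were not called again, so it cannot decide the part of depth.

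In mammalian nuclei cohesin is thought to reel chromatin into growing loops until it meets CTCF bound to DNA, and it halts most readily where the CTCF motif points towards the loop. Paired sites that point at each other can therefore meet, which appears in a contact map as a raised spot at the corner of a domain. Below the corner lies the TAD interior, and beyond it lie contacts that cross one edge or both.

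Inward-facing motifs lay at both edges of 3 of the TADs named below for the highest corners or the largest differences between maps. These 3 pairs show what an inward-facing pair looks like. Of the 1452 TADs whose corner could be measured, 218 held inward-facing motifs at both edges. Among the other TADs named by rank, chr6:134420001-135260000, chr4:163380001-164460000 and chr2:181940001-183020000 held only outward-facing motifs. At chr2:150420001-151380000 and chr5:32620001-33420000 no motif was found. No link between such pairs and extreme corners is drawn. All 6 sequences are 30 bases of GRCh37 (hg19) read 5′ to 3′ on the forward strand, with the CTCF core motif of 12 bases in capitals. A motif on the forward strand at the start and on the reverse strand at the end point at each other. The first pair flanked a TAD at chr6:15660001-16220000 whose edges both lay at a CTCF siRNA edge, 32 kb inside its start and 13 kb inside its end, outside protein-coding genes and exons. The second flanked chr13:27940001-28580000, which had no CTCF siRNA edge nearby, 4 kb before the start outside genes and 21 kb inside the end in an intron of URAD. The third flanked chr17:66740001-67260000, 3 kb before the start outside genes and 17 kb inside the end at an annotated exon within ABCA5. Where a window held several inward-facing matches, the one nearest the edge is shown. The start window of the first TAD also held 1 reverse match, which faces outwards and is not shown. A match describes letters and not CTCF binding, which was not measured here.
chr6:15691622-15691651, start edge, forward motif: cgtctacagCCACTAGAGGGCagaccgcag
chr6:16206946-16206975, end edge, reverse motif: ggaaaaggtGCCCTCTAGTGGtaaacacag
chr13:27936276-27936305, start edge, forward motif: cagcgatggCCAGCAGATGGCgccaggccc
chr13:28558573-28558602, end edge, reverse motif: tcctggactGCCACCTACTGGccaataatc
chr17:66737125-66737154, start edge, forward motif: agagtttggCCACTAGATGGCcaaactcca
chr17:67243108-67243137, end edge, reverse motif: tcaatgactGCCACCTAGTGGatataactt

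Each corner was read as the 3 by 3 bins around the pair of start bin and end bin, 120 kb on a side, and was set against the rest of a window of 21 by 21 bins. Observed contacts were divided by those expected from the mean of the same chromosome and distance. The corner ratio is observed over expected contacts in the corner divided by observed over expected contacts in the surroundings. A ratio could be measured at 1452 corners, and the other 284 had a corner bin or over 50% of the surroundings in bins with few contacts. Of those 284, 225 began before position 48120000 of their chromosome, where the correction factors of the deposited values end, and 108 of them began before position 9400001, where those factors begin and where no corner could be measured on any autosome. Of the measured TADs, 929 shared an edge position with a neighbour in the set, so the corners are not independent of each other.

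Summed over the 1452 corners, the corner ratio was 1.64 (1.63 to 1.66) in control siRNA, from 46945 corner contacts, and 1.27 (1.26 to 1.27) in CTCF siRNA, from 184403. The log2 difference was -0.37 (-0.39 to -0.36). Contacts at the corners were 1.73 times the expected number in control siRNA and 1.48 times in CTCF siRNA. The surroundings moved the other way, from 1.05 to 1.17 times expected. Both sides of the ratio thus differed between the maps, and the corner still stood above its surroundings in each.

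The edges were split by whether a TAD edge of the CTCF siRNA list lay within 40 kb, a choice that used both maps. Both edges were near one at 484 TADs, a single edge at 890 and neither at 362, of which 377, 756 and 319 could be measured. Where both edges were near, the corner ratio was 1.52 (1.49 to 1.55) in control siRNA and 1.26 (1.25 to 1.27) in CTCF siRNA, a log2 difference of -0.27 (-0.30 to -0.24). Where one edge was near, it was 1.66 (1.64 to 1.68) and 1.29 (1.28 to 1.30), a difference of -0.37 (-0.39 to -0.35). Where no edge was near, it was 1.75 (1.72 to 1.78) and 1.22 (1.21 to 1.24), a difference of -0.52 (-0.55 to -0.48). By these differences the classes stood in this order with counting intervals that did not overlap, and the difference of the last class minus that of the first was -0.24 (-0.29 to -0.20). With a single bin pair as the corner the differences were -0.34, -0.36 and -0.47, so that the gap between the last class and the first was smaller by over 1.5 times and the first classes were barely apart. Counting intervals leave out the spread between TADs. The median control ratio over TADs was 1.37 (1.28 to 1.47) with both edges near, 1.45 (1.39 to 1.54) with one and 1.60 (1.48 to 1.71) with none. These intervals, of the median over TADs, overlapped between neighbouring classes.

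Corner and surroundings were then taken separately. At TADs with both edges near, corner contacts themselves were 1.59 times expected in control siRNA and 1.57 times in CTCF siRNA, a log2 difference of -0.02 ± 0.03 (the ± values of these log2 differences are 1.96 counting SE), while the surroundings went from 1.05 to 1.25. At TADs with no edge near, the corner went from 1.84 to 1.25 times expected, a log2 difference of -0.55 ± 0.03, and the surroundings from 1.05 to 1.02. These values are not corrected for the coverage of the bins, which moved with the class. The median edge bin held 0.914 times the contacts of its chromosome's median bin in control siRNA and 1.15 times in CTCF siRNA with both edges near, and 0.979 and 0.978 times with no edge near. The part of coverage in the corner and in the surroundings was not tested.

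**Figure D1:**
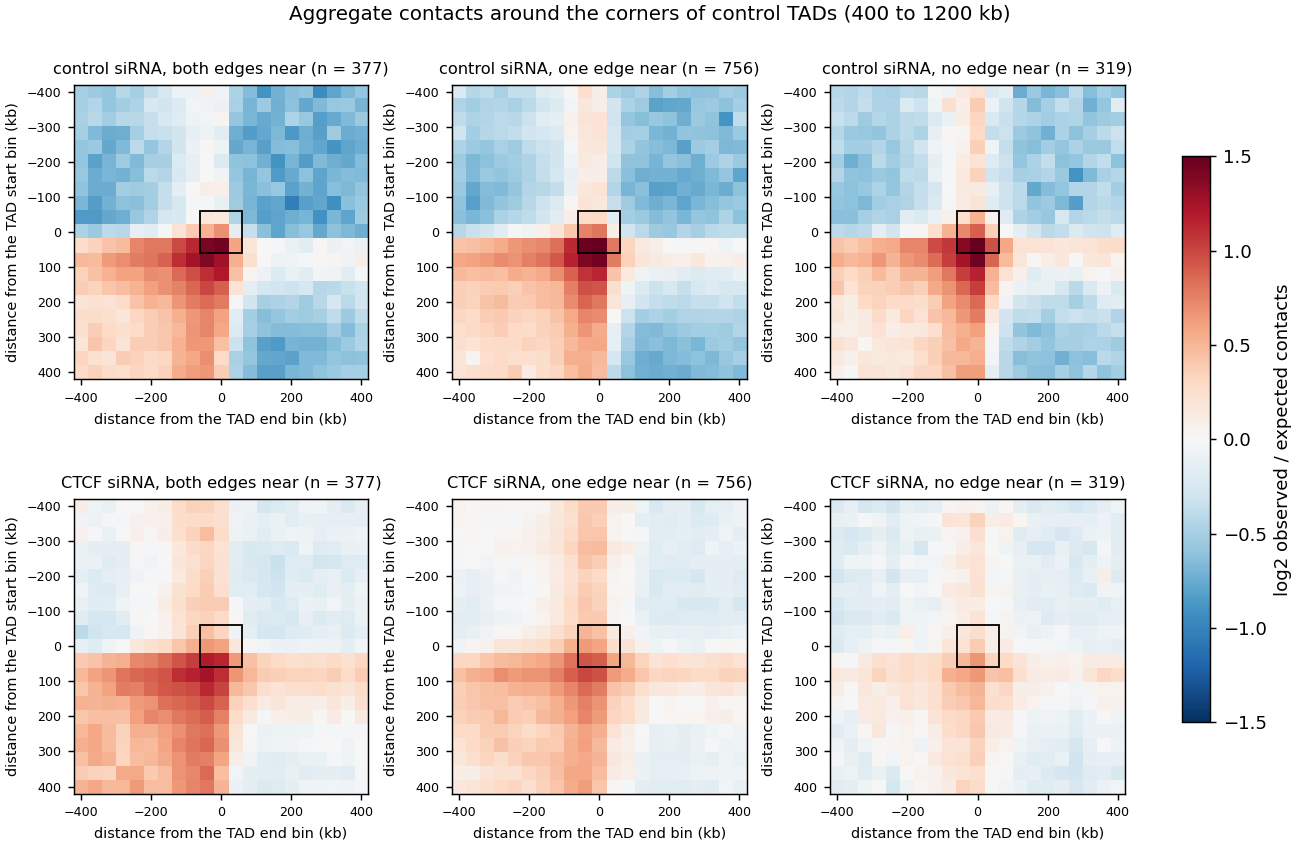
Log2 of observed over expected contacts in the 21 by 21 bins around the corners, summed over TADs, with distance in kb from the start bin (vertical) and the end bin (horizontal) and the 3 by 3 corner boxed. The upper row is control siRNA and the lower row CTCF siRNA, for 377 TADs with both edges near, 756 with one and 319 with none. The TAD interior lies at lower left, and the blue quadrants of the control map are paler in the CTCF siRNA map.

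The quadrants of the window were then taken separately, leaving out the 3 bins along each edge. Inside the TADs, contacts were 1.36 times expected in control siRNA and 1.35 times in CTCF siRNA over all 1452 TADs. Contacts across the start edge were 0.738 times expected in control siRNA and 0.986 times in CTCF siRNA, and those across the end edge were 0.753 and 1.005 times. Contacts that joined the flanks of a TAD past both its edges were 0.650 and 0.910 times expected. Contacts across either edge thus stood close to expected in CTCF siRNA and those past both edges stayed below it, with log2 differences of 0.42 ± 0.01 at either edge and 0.49 ± 0.01 past both.

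Crossing contacts were higher in CTCF siRNA in every edge class, and interior contacts separated the classes. The log2 difference across the start edge was 0.47 ± 0.01 where both edges were near and 0.29 ± 0.02 where none was. Inside the TADs the difference was 0.14 ± 0.01 where both edges were near, from 1.41 to 1.56 times expected, and -0.26 ± 0.01 where none was, from 1.27 to 1.06. TADs with no CTCF siRNA edge nearby thus held fewer interior contacts in that map, and the classes were defined in part by its contacts.

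**Figure D2:**
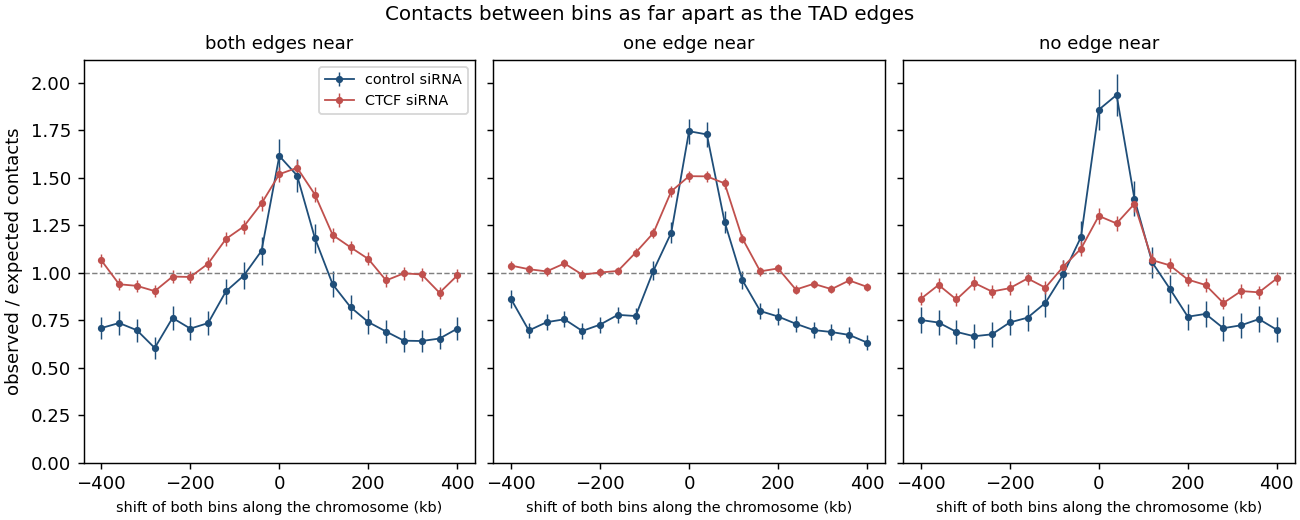
Observed over expected contacts (vertical) between bins as far apart as the TAD edges when both bins are shifted along the chromosome (horizontal, kb), per edge class, with 95% counting intervals. In control siRNA the peak at a shift of 0 to 40 kb stands on flanks of about 0.7, and in CTCF siRNA a lower or equal peak stands on flanks close to 1.

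Comparison at a constant distance gave the same order without the interior of the TAD in the surroundings. With both bins shifted 400 kb upstream, contacts over all TADs were 0.799 times expected in control siRNA and 1.01 times in CTCF siRNA. At the corner itself they were 1.74 and 1.47 times. With only positions of the corner's distance as surroundings, the corner ratio was 2.12 in control siRNA and 1.42 in CTCF siRNA. The log2 difference was then -0.46 with both edges near, -0.58 with one and -0.76 with none.

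The position of the highest contacts did not fall on the pair of start and end bin. The deposited edges lie 20 kb into a contact bin, and in the control map the highest value of the 5 by 5 central bins was 2.92 times expected, 1 bin further into the TAD at the start and 0 bins from the end bin, against 1.74 times at the pair itself. With the 3 by 3 corner moved there, a setting chosen after the data were seen, the ratio was 2.03 in control siRNA and 1.44 in CTCF siRNA, a log2 difference of -0.49.

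By size, 654 corners belonged to TADs of 400 to 640 kb, 491 to TADs of 680 to 920 kb and 307 to TADs of 960 to 1200 kb. The corner ratio was 1.70 (1.68 to 1.72) in control siRNA and 1.28 (1.27 to 1.29) in CTCF siRNA in the shortest class. It was 1.58 (1.55 to 1.61) and 1.23 (1.22 to 1.24) in the middle class, and 1.64 (1.60 to 1.68) and 1.31 (1.29 to 1.33) in the longest. The log2 differences were -0.41, -0.36 and -0.32, so that the longest class exceeded the shortest by 0.09 (0.04 to 0.14). With iteratively balanced counts, which give every bin the same total, this contrast was -0.001, and no order by size is drawn from it.

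Corner contacts without their surroundings, in counts not corrected for the coverage of the bins, showed another order by size. They were 1.66 times expected in control siRNA and 1.48 times in CTCF siRNA in the shortest class, a log2 difference of -0.16 ± 0.02, and 2.12 and 1.58 times in the longest class, a difference of -0.42 ± 0.04. Interior contacts differed by 0.08 ± 0.01 in the shortest class and by -0.22 ± 0.01 in the longest. Contacts across the start edge were higher in CTCF siRNA by 0.51 ± 0.01 in the shortest class and by 0.13 ± 0.02 in the longest. The part of coverage in these orders was not tested.

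The edge classes kept their order within each size class. The log2 difference with no edge near minus that with both edges near was -0.22 (-0.28 to -0.16) in TADs of 400 to 640 kb, -0.33 (-0.41 to -0.25) in those of 680 to 920 kb and -0.22 (-0.34 to -0.10) in those of 960 to 1200 kb. Among all 9 combinations, the control ratio ran from 1.50 (1.44 to 1.55), in TADs of 680 to 920 kb with both edges near, to 1.84 (1.78 to 1.90), in those of the same size with no edge near. In CTCF siRNA the lowest was 1.19 (1.17 to 1.21), in the shortest TADs with no edge near, and the highest 1.33 (1.28 to 1.37), in the longest with no edge near.

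**Figure D3:**
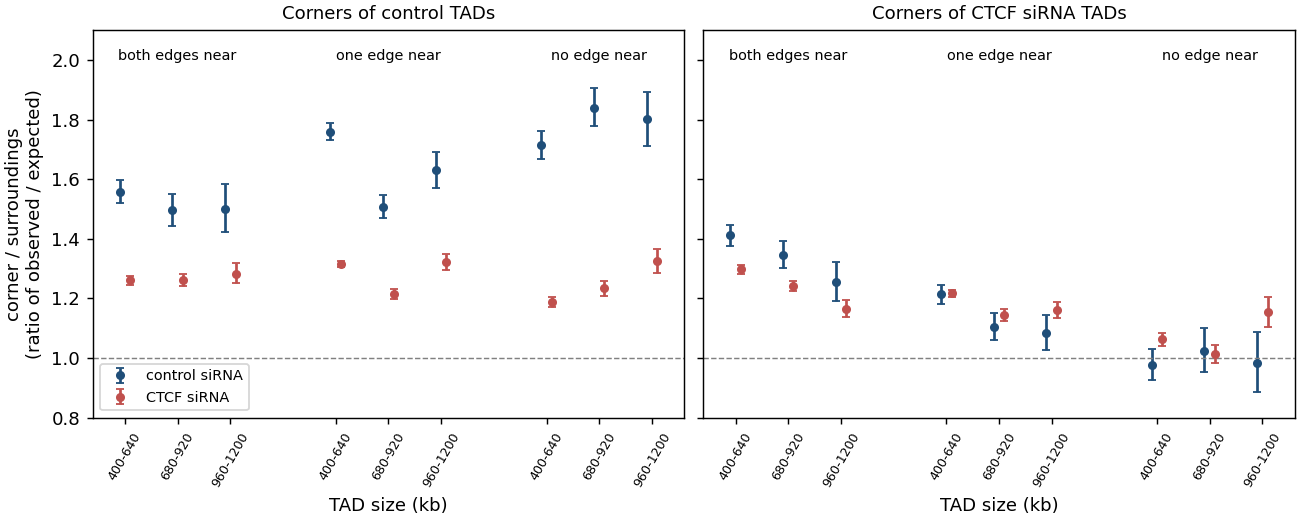
Corner ratio (vertical, corner over surroundings) by TAD size in kb and edge class in both maps, with 95% counting intervals. Left are corners of control TADs, where every control value lies above its CTCF siRNA value. Right are corners of TADs called on the CTCF siRNA map, where the 2 maps mostly lie closer together. The widest gap there is at 960 to 1200 kb with no control edge near, from 0.982 in control siRNA to 1.15 in CTCF siRNA. The values with no control edge near run from 0.977 to 1.15.

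The limits of the rule were compared with the values on both sides, as a description. The ratio went from 1.82 to 1.32 at 89 TADs of 400 kb, just inside, and from 1.74 to 1.31 at 105 TADs that were 1 bin shorter, just outside. It went from 1.71 to 1.27 at 33 TADs of 1200 kb and from 1.26 to 0.993 at 37 TADs that were 1 bin longer. By the edge farther from a CTCF siRNA edge, the log2 difference was -0.17 (-0.21 to -0.13) at 179 TADs with both edges at 0 kb and -0.38 (-0.42 to -0.34) at 198 with that edge at 40 kb. Just outside that limit, at 80 kb, it was -0.26 (-0.32 to -0.20) at 82 TADs. The distance of 40 kb thus marked no step, and the smallest difference was that of TADs with both edges at the same positions in both lists.

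The converse set was formed by the TADs of the same sizes called on the CTCF siRNA map, 1306 of 2389 listed, with 1046 measured corners. Their ratio was 1.23 (1.21 to 1.24) in control siRNA and 1.20 (1.20 to 1.21) in CTCF siRNA, a log2 difference of -0.03 (-0.05 to -0.01). Where both of their edges lay near a control edge, at 463 TADs, the ratio was 1.36 in control siRNA and 1.26 in CTCF siRNA, a difference of -0.12 (-0.14 to -0.09). At 441 TADs with one edge near a control edge, it was 1.16 and 1.19, a difference of 0.036 (0.004 to 0.068). At 142 TADs with no control edge near, it was 0.986 (0.949 to 1.03) in control siRNA and 1.06 (1.04 to 1.07) in CTCF siRNA, a difference of 0.10 (0.04 to 0.16). Choosing TADs on the CTCF siRNA map therefore gave a much smaller difference. At those with one or no control edge near the pooled direction was turned, though at the 48 of 680 to 920 kb with no control edge near the difference was -0.02 (-0.13 to 0.10). The corners of the 142 TADs with no control edge near stood 1.06 times above their surroundings in the map that they were called on, against 1.75 times for control TADs with no CTCF siRNA edge in theirs. With balanced counts these values were 1.33 and 1.75, and the 142 TADs had a ratio of 1.17 in control siRNA and a log2 difference of 0.18.

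Single corners carried few contacts, with a median of 27 in control siRNA and 98.5 in CTCF siRNA, and 2 of the 1452 held 0 contacts in control siRNA. The median ratio was 1.46 (1.42 to 1.52) in control siRNA and 1.19 (1.16 to 1.23) in CTCF siRNA. These intervals, from binomial order statistics, give the spread over corners as if they were independent, though many share an edge. The middle 50% of corners lay between 1.01 and 2.12 in control siRNA and between 0.871 and 1.60 in CTCF siRNA, so that the maps overlapped widely. A ratio above 1 was found at 1095 corners (75.4%) in control siRNA, against 39.4% of the 1186384 autosomal bin pairs at 400 kb to 1.2 Mb that could be measured in the same way. In CTCF siRNA it was found at 945 corners (65.1%), against 44.4% of all pairs. The ratio was lower in CTCF siRNA at 981 corners (67.6%), against 42.8% of all pairs. The corners had been chosen on the control map, and nothing is read from these shares beyond their size.

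The summed ratio over all of those bin pairs was 1.0005 in control siRNA and 1.003 in CTCF siRNA, which is the background for the values above. Their median was 0.848 in control siRNA and 0.939 in CTCF siRNA. The 95th percentile of all pairs, 2.11 in control siRNA and 1.85 in CTCF siRNA, was exceeded by 367 corners (25.3%) in control siRNA and by 221 (15.2%) in CTCF siRNA. By edge class, 65.3% of corners with both edges near, 64.9% with one and 76.5% with none were lower in CTCF siRNA.

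**Figure D4:**
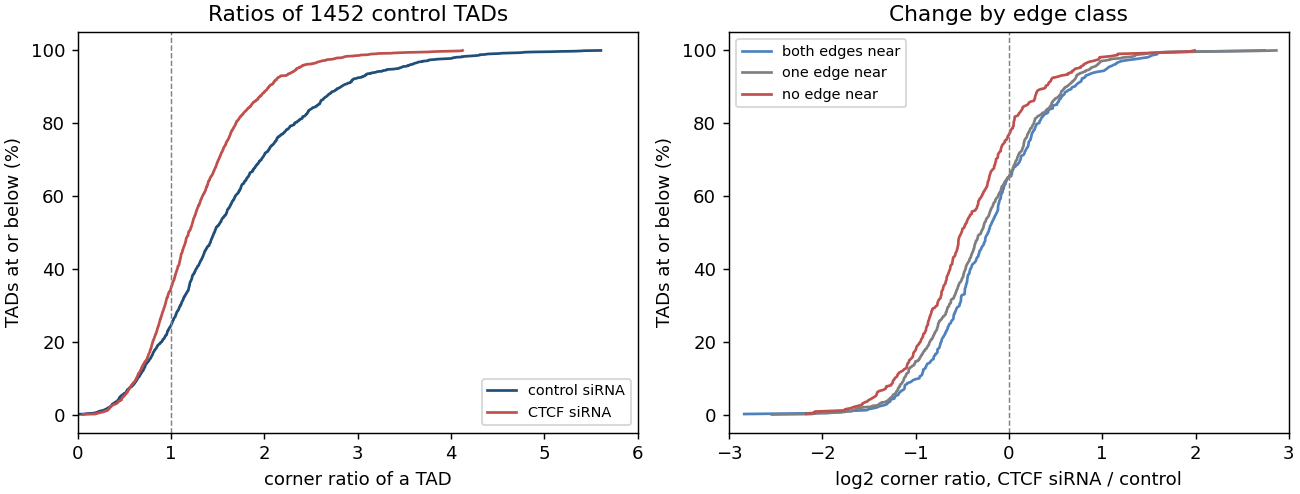
Cumulative share of TADs (vertical, %) by corner ratio in each map (left) and by the log2 difference between maps in each edge class (right, without the 2 corners that held 0 contacts in control siRNA). The curves of the maps run together below a ratio of about 0.8 and separate above it, and the curve with no edge near lies to the left of the others.

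The lower ratio was spread over the genome. Across the 22 autosomes the ratio ranged from 1.095 to 2.18 in control siRNA and from 1.08 to 1.62 in CTCF siRNA, above 1 on every autosome in each map. It was lower in CTCF siRNA on 20 of the 22. The largest difference was on chromosome 4, -0.54 (-0.60 to -0.47) over 83 TADs. On chromosomes 19 and 21 the differences were 0.09 (-0.07 to 0.24) and 0.11 (-0.03 to 0.25), over 19 and 20 TADs, with intervals that held 0.

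Features that the rule did not use were read in 120 kb around each edge. At the edges of measured TADs, 68.7% of windows held the start site of a protein-coding gene, against 41.5% of all usable autosomal windows. Median GC content was 41.2% against 39.6%. The CTCF core motif was searched as a 12-base core on both strands, with 6431 forward and 6417 reverse matches on the autosomes and chromosome X. At start edges 36.1% of windows held a forward and 37.9% a reverse match, and at end edges 31.9% held a forward and 42.6% a reverse match, against 21.5% of all windows for either strand. More end edges thus held the inward-facing match than the outward-facing one, and start edges did not. The highest contacts in the control map lay 1 bin further into the TAD at the start and 0 bins from the end bin. Windows around the listed edges may therefore sit differently at start and end edges, and the part of this was not tested.

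Edges near a CTCF siRNA edge were richer in genes than the others. Start sites lay in 77.8% of the 1510 edge windows within 40 kb of a CTCF siRNA edge and in 58.8% of the other 1394, with a median GC content of 41.9% and 40.3%. The coverage of these windows moved too: the median edge bin near a CTCF siRNA edge held 0.912 times the contacts of its chromosome's median bin in control siRNA and 1.09 times in CTCF siRNA, and the other edge bins 1.01 and 1.07 times. Balancing gives every bin the same total, and the log2 difference of the corner ratio over all TADs was then -0.38. With balanced counts the control ratio no longer rose from both edges near to none: it was 1.78, 1.74 and 1.75, while that of CTCF siRNA was 1.47, 1.34 and 1.23.

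In control siRNA, corner ratios were lower at edges with more GC or more start sites, and the differences between the maps were smaller there. In the tercile of TADs with the lowest edge GC, the ratio was 1.87 (1.84 to 1.90) in control siRNA and 1.24 (1.23 to 1.26) in CTCF siRNA, a log2 difference of -0.59 (-0.62 to -0.56). In the middle tercile it was 1.69 (1.67 to 1.72) and 1.29 (1.28 to 1.30), and in the tercile with the highest GC it was 1.42 (1.40 to 1.44) and 1.26 (1.25 to 1.27), a difference of -0.17 (-0.20 to -0.15). The ratios in CTCF siRNA thus followed no order by GC. With balanced counts the differences of the lowest and highest terciles were -0.51 and -0.24. At 205 TADs without a start site in either edge window the ratio was 1.91 in control siRNA and 1.33 in CTCF siRNA, and at 484 TADs with 4 or more it was 1.37 and 1.20. The lowest tercile held 32.4% TADs with no edge near and the highest 15.9%, so these orders and that of the edge classes share TADs.

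In CTCF siRNA, ratios were higher with motifs at both edges than at none, for motifs that face into the TAD and for those that face out of it, but the intervals of the median over TADs overlapped in each case. Median edge GC moved with these groups, at 44.18% with inward motifs at both edges and 39.96% with none, and at 44.49% and 39.94% for outward motifs, and its part was not tested. In control siRNA the intervals overlapped for inward motifs, and the difference between the maps had no order by them that held under both counts. At 218 TADs with an inward match at both edges the ratio was 1.67 (1.63 to 1.71) in control siRNA and 1.35 (1.33 to 1.36) in CTCF siRNA, a log2 difference of -0.31 (-0.34 to -0.27). At 528 TADs with none it was 1.63 (1.61 to 1.66) and 1.23 (1.22 to 1.24), a difference of -0.41 (-0.44 to -0.39). With balanced counts the ratios were 1.81 and 1.37 with matches at both edges, and 1.73 and 1.33 with none, with differences of -0.40 and -0.38, so the order of the differences turned. With outward matches at both edges, at 190 TADs and with unbalanced counts only, the ratio was 1.49 (1.46 to 1.53) in control siRNA and 1.33 (1.32 to 1.35) in CTCF siRNA, a difference of -0.17 (-0.21 to -0.13). At 629 TADs without outward matches it was 1.71 (1.68 to 1.73) and 1.27 (1.26 to 1.28), a difference of -0.43 (-0.45 to -0.41). At 82 TADs with inward matches at both edges and outward matches at neither, the control ratio was 1.73 (1.67 to 1.80), and at 62 with the opposite arrangement it was 1.73 (1.65 to 1.80), which were not distinguishable at this depth.

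**Figure D5:**
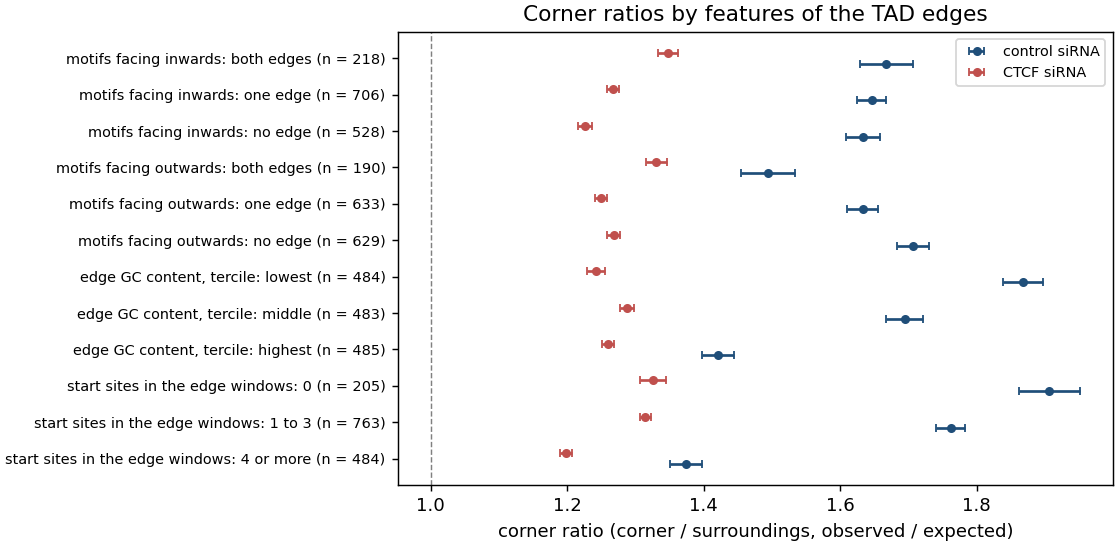
Corner ratio (horizontal) in both maps for TADs grouped by CTCF core motifs facing into or out of the TAD, by GC content and by gene start sites at the edges, with 95% counting intervals. Control values run from 1.37 to 1.91 across the groups and CTCF siRNA values from 1.20 to 1.35.

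Single TADs were named by rule among the 955 with at least 20 contacts in the control corner, and these values are extremes of the maps that chose them. With both edges near, the highest control ratio was at chr6:134420001-135260000, whose end bin holds ALDH8A1, an aldehyde dehydrogenase gene. Its corner held 103 contacts in control siRNA, 8.64 times expected, and 215 in CTCF siRNA, 4.55 times expected. The ratio was 5.16 (4.22 to 6.30) and 2.73 (2.38 to 3.13). The TAD at chr6:15660001-16220000, whose edge bins hold DTNBP1 and GMPR and whose paired motifs are printed above, had ratios of 4.77 (3.78 to 6.02) and 2.84 (2.50 to 3.21). At chr4:163380001-164460000, with TMA16 and MARCHF1 in the end bin, the corner held 35 contacts in control siRNA and 46 in CTCF siRNA, for ratios of 4.73 and 2.43.

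With one edge near, the highest ratios in control siRNA were 5.61, 5.39 and 5.32. The first was at chr13:27500001-27940000, with 142 corner contacts in control siRNA and 407 in CTCF siRNA and a ratio of 2.66 in the latter. The next was at chr12:101180001-101740000, from ANO4 to UTP20, where the start lay 480 kb from any CTCF siRNA edge and the ratio in CTCF siRNA was 2.07 (1.80 to 2.39). The last was at chr2:150420001-151380000, from MMADHC to RND3, with a ratio of 3.16 in CTCF siRNA. No CTCF core motif was found in either edge window of that TAD.

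With no edge near, the highest control ratio was 5.42 (4.33 to 6.80) at chr6:39300001-40260000, from a potassium channel cluster with KCNK17 and KCNK16 to a gene-free end bin. Its corner was 8.36 times expected in control siRNA and 8.80 times in CTCF siRNA, and its ratio of 4.12 (3.69 to 4.60) there was the highest in CTCF siRNA among the TADs named by rank. The TAD at chr13:27940001-28580000, which ends at URAD and FLT3, a receptor tyrosine kinase gene, had a corner at 9.19 and 9.60 times expected, and its ratio was 4.78 (3.91 to 5.85) in control siRNA and 3.38 (3.06 to 3.74) in CTCF siRNA, as its surroundings went from 1.92 to 2.84 times expected. At chr7:111380001-112100000, from DOCK4 to IFRD1, the corner went from 5.83 to 2.94 times expected. All 3 corners, chosen for their control ratios, stayed above their surroundings in CTCF siRNA. Of all 319 measured corners with no edge near, 207 (64.9%) did so, against 44.4% of all bin pairs.

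The largest lower values in CTCF siRNA were on chromosomes 2 and 17. At chr2:162060001-163140000, from TANK to IFIH1, a sensor of viral RNA, 32 corner contacts in control siRNA (3.93 times expected) stood against 12 in CTCF siRNA (0.359 times expected), a log2 difference in ratio of -2.54 ± 0.49 (counting SE). At chr2:181940001-183020000, from UBE2E3 to PDE1A, the contacts were 21 and 12 and the difference -2.17 ± 0.53. At chr17:66740001-67260000, which ends in the ABC transporter genes ABCA10 and ABCA5, they were 52 and 44 and the difference -2.12 ± 0.30. The ratio was 2.47 in control siRNA and 0.569 there in CTCF siRNA. This TAD held inward motifs at both edges, printed above, and their part was not tested.

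The largest higher values lay at TADs with a CTCF siRNA edge nearby. Most TADs were of this kind, as 319 of the 1452 measured had no edge near, and no link with edges is drawn. At chr1:203220001-203780000, from CHIT1 to ZBED6 and ZC3H11A, corner contacts were 0.994 times expected in control siRNA and 3.18 times in CTCF siRNA, a log2 difference in ratio of 1.15 ± 0.28 (counting SE). At chr5:32620001-33420000, which begins at SUB1, the difference was 1.06 ± 0.34. At chr2:72380001-73100000, from CYP26B1, an enzyme that degrades retinoic acid, to SPR, the ratio was 1.63 (1.120 to 2.37) in control siRNA and 3.21 (2.81 to 3.67) in CTCF siRNA.

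Of 29 androgen-regulated and luminal prostate genes, 14 lay whole inside 13 different TADs of the set, all measured. The median ratio of these TADs was 1.33 in control siRNA and 1.31 in CTCF siRNA, against 1.46 and 1.19 over all measured TADs, and the TAD ratio was lower in CTCF siRNA for 10 of the 14 genes, near the 67.6% of all measured corners. The TAD of GATA2, a transcription factor that works with the androgen receptor, had a ratio of 2.76 (2.24 to 3.39) in control siRNA, from 94 corner contacts, and 1.33 in CTCF siRNA, a log2 difference of -1.05 ± 0.17 (counting SE, here and below). The corner of the GATA2 TAD was 4.25 times expected in control siRNA and 3.63 times in CTCF siRNA, and its surroundings 1.54 and 2.73 times. The ratio at the TAD of ZBTB16, a zinc finger factor, went from 1.74 to 0.943, a difference of -0.88 ± 0.20. The TAD of HOXB13, a prostate homeobox factor, had ratios of 2.68 (2.20 to 3.27) and 2.13. For TMPRSS2, a protease gene under androgen control, they were 1.48 and 1.34, with a difference of -0.14 ± 0.19 that counting error covers. The TAD of SLC45A3, which encodes the prostate antigen prostein, stood at 1.26 and 1.54, a difference of 0.28 ± 0.20. STEAP1 and STEAP2 shared a TAD whose corner held 6 contacts in control siRNA and whose ratio was 0.546 and 0.534.

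Of 20 developmental regulators, 9 lay inside 8 different TADs, with a median ratio of 2.27 in control siRNA and 1.43 in CTCF siRNA. The TAD was lower in CTCF siRNA for 5 of the 9 genes, against 67.6% of all measured corners. The ratio at PAX3, a paired box factor, was 3.14 (2.45 to 4.03) in control siRNA and 1.02 in CTCF siRNA, a difference of -1.62 ± 0.24. The TAD of SOX9, which lies at its edge, kept a ratio of 2.95 and 2.51, with 118 contacts in control siRNA and 763 in CTCF siRNA, the most of any corner in that map. At HOXA13, of the HOXA cluster, the ratio was 2.47 and 2.86, and at the signalling gene SHH 1.72 and 0.973. IHH and WNT6 shared a TAD whose corner held 0 contacts in control siRNA against 7.24 expected, so no difference could be given.

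Of 12 genes for CTCF, cohesin and its loaders and releasers, 4 lay inside TADs of the set, and all 4 TADs were lower in CTCF siRNA, where 67.6% of all measured corners were. The TAD of STAG1, a cohesin subunit, had a ratio of 2.83 (2.06 to 3.88) in control siRNA and 1.50 in CTCF siRNA. That of the cohesin regulator PDS5B had 2.48 and 1.19, and that of its relative PDS5A had 0.954 (0.598 to 1.52) and 0.693 (0.527 to 0.911). The TAD of CTCF itself had no raised corner in either map, with ratios of 0.593, from 10 contacts at the corner, and 0.326 (0.236 to 0.450). The differences for PDS5A and CTCF lay within counting error.

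Start sites of 30 of the 76 autosomal ribosomal protein genes (39.5%) lay within 40 kb of an edge in the set, against 15.7% of the 19229 autosomal protein-coding genes. The lists were compared with these backgrounds only as descriptions, since they were chosen with earlier results of these data known.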

How the data were processed

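Per the methods, the authors mapped the read pairs to hg19 with HiCUP and Bowtie 1.1.0, tagged duplicates with Picard 1.121, sorted with SAMtools 1.2 after quality checks with FastQC 0.11.2, and pooled the libraries of each condition at 40 kb. They called TADs on each pooled map with a directionality index and a hidden Markov model. The deposited contact values are read-pair counts multiplied by a factor for each bin position, with no scaling for depth, and the deposited TAD lists hold start and end positions. Factors differed from 1 between positions 9400001 and 48120000 on every chromosome, where 121 positions held no contact on any chromosome. Each was estimated from the deposited values, then divided out. After that, 99.9999% of testable pairs were whole within a rounding tolerance in either map, against 2.28% and 2.40% if remainders were random. Testable pairs, whose factors were large against that tolerance, were 99.998% of the pairs with a factor in control siRNA and 99.983% in CTCF siRNA. The divided values served as counts throughout, since counts had been assumed when the comparisons were chosen, and the deposited values were kept as an alternative.

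Bins with at least 10% of the chromosome's median contacts in both maps were used (59714 of 72006 autosomal bins), and window positions under 2 bins from the diagonal were left out. Sums over TADs carry Poisson intervals. Genes came from GENCODE lifted to GRCh37, the build of the files. Named TADs were the 3 highest control ratios per edge class, the 3 largest differences in each direction and those holding a list gene, of which 1 is not reported here by name. Members and lists were chosen with earlier results of these data known. Grouping followed the siRNA in the labels. The estimate was run on simulated maps with set corner ratios. These held no TAD interiors and no coverage differences between usable bins, so the part of either was not tested. Python 3.11.15, NumPy 2.4.6, pandas 2.3.3 and SciPy 1.17.1 were used. Alternatives are given in the closing section.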

Additional observations from a re-analysis of the deposited data

How the results depend on the processing

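No paired analysis was possible because the processed maps used here are pooled, 1 for each siRNA. Over all TADs and in each edge class, the corner ratio was lower in CTCF siRNA under each alternative tried, all with TADs of the control list. With TADs of the CTCF siRNA list the log2 difference was -0.03. It was -0.12 with both edges near a control edge, 0.036 with one and 0.10 with none. In 50 of 100 alternative values the move was within the counting interval of the reported value, and the cause of the others was not tested. The contrast of the longest and shortest TADs reversed to -0.001 with balanced counts, was 0.272 with a single bin pair as the corner, and was 0.038 with the corner 1 bin further in at the start, a setting chosen after seeing the data. The precision is limited by the control depth, at a median of 27 contacts per corner.

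Over all TADs, the ratio in control siRNA was 1.684 with the deposited values, 1.752 with balanced counts, 1.763 as a mean over TADs, 2.123 with same-distance surroundings, 1.397 with an 11 by 11 window, 1.670 with 5 by 5 bins left out of the surroundings, 1.538 with a 5 by 5 corner, 1.685 with positions from 200 kb, 1.622 without chromosomes 4, 6, 10 and 16, and 2.027 with the corner moved in. That in CTCF siRNA was 1.347 with balanced counts, 1.332 as a mean over TADs, 1.416 with same-distance surroundings, 1.143 with an 11 by 11 window, 1.279 with 5 by 5 bins left out, 1.254 with a single bin pair, 1.262 with a 5 by 5 corner, 1.296 with positions from 200 kb, 1.280 with bins of at least 25% of the median, and 1.439 with the corner moved in.

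The log2 difference over all TADs was -0.415 with the deposited values, -0.405 as a mean over TADs, -0.584 with same-distance surroundings, -0.289 with an 11 by 11 window, -0.285 with a 5 by 5 corner, -0.356 without those 4 chromosomes, and -0.494 with the corner moved in. With both edges near it was -0.307 as a mean, -0.461 at the same distance, -0.205 with an 11 by 11 window, -0.339 with a single bin pair, -0.211 with a 5 by 5 corner, -0.170 with edges required within 0 kb, and -0.346 with the corner moved in. With one edge near it was -0.426 with the deposited values, -0.580 at the same distance, -0.283 with an 11 by 11 window, -0.280 with a 5 by 5 corner, -0.392 with edges within 80 kb, and -0.512 with the corner moved in. With no edge near it was -0.572 as a mean, -0.758 at the same distance, -0.398 with an 11 by 11 window, -0.467 with a single bin pair, -0.389 with a 5 by 5 corner, -0.459 with edges within 0 kb, and -0.646 with the corner moved in.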

Other observations

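On chromosome X, outside the set, 37 of 52 control TADs of the same sizes could be measured. Their corner ratio was 1.80 (1.66 to 1.95) in control siRNA, from 589 corner contacts, and 1.32 (1.26 to 1.38) in CTCF siRNA, from 1842, a log2 difference of -0.44 (-0.58 to -0.31). The autosomal value of -0.37 lies within this interval.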
